A study of Mus musculus with 28 samples.

Results

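MicroRNA genes were followed through their own probe sets on 28 Affymetrix mouse arrays, hybridised with labelled cRNA from total RNA of splenic dendritic cells. A member was a gene whose symbol begins with Mir and a digit, or with Mirlet7, on a probe set annotated to that symbol alone. A gene with several such probe sets was represented by the one whose average across the 28 arrays was highest. Of 19938 genes with a single-symbol probe set 300 were members, 4 of them host transcripts such as Mir17hg. A log2 level above 5 on at least 3 arrays was required for testing, which 69 members passed among 10452 tested genes. The other 231 members stayed below it, and 205 of these were above 5 on no array. Another 61 probe sets named a microRNA together with another gene and were not members.

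Mice lacking NOX2, which produces superoxide in phagocytes, gave 2 groups, cells exposed to angiotensin II (Ang II, n = 4) and to vehicle (n = 3). The labels write this genotype as GP91 Phox knockout and the wild type as C57BL6/J, and all mice were 3 months old. Wild-type cells gave Ang II combined with hydralazine plus hydrochlorothiazide (the pair called Hyd/HCTZ, n = 6), Ang II with 2-hydroxybenzylamine (2-HOBA, n = 4), Ang II alone (n = 4) and vehicle (n = 7). Ang II is a hormone that raises blood pressure, hydralazine is a vasodilator, hydrochlorothiazide is a diuretic and 2-HOBA scavenges reactive products of lipid oxidation. Some knockout titles wrote angiotensin I where the description wrote angiotensin II, and the description was followed. The sources used here did not settle whether mice or isolated cells received the agents, and gave no dose, duration, sort or pooling. The samples were labelled as biological replicates.

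A microRNA is cut by Drosha and Dgcr8 from a longer primary transcript as a hairpin, exported by exportin 5 (Xpo5), and cut again by Dicer1 into a short duplex. One strand then guides an Argonaute protein to messenger RNAs, which it finds mainly through its seed, bases 2 to 8. Many microRNA genes lie in introns of protein-coding genes or share one transcript in a cluster. In blood cells miR-142 is made throughout the lineage, the miR-17 cluster accompanies proliferation, and miR-150 is typical of mature lymphocytes. The probe sets measure RNA annotated to these genes, and the shares from primary transcript, hairpin and mature microRNA were not measured.

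Mature sequences were matched for 62 of the 69 tested members, and hairpins for 54, from RefSeq (GRCm38.p6). The first set shows arms of the members that were higher with Hyd/HCTZ, 5′ to 3′, with the seed in capitals.
miR-18a-5p: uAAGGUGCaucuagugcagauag
miR-17-5p: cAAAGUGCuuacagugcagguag
miR-142a-3p: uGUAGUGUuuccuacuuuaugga
miR-103-3p: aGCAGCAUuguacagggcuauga
miR-15a-5p: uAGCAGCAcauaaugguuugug
miR-23a-3p: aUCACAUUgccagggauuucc
miR-27a-3p: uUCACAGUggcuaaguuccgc
miR-24-3p: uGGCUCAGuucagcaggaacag
miR-505-3p: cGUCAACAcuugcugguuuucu
miR-680: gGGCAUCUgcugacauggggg

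The second set shows arms of members that were lower with Hyd/HCTZ, again with the seed in capitals, shown for a large difference, a seed shared with another tested member or, for let-7i-5p, a well-known family. Also shown is miR-25-3p, from a member that did not pass the test, for the seed it shares with miR-92b-3p.
miR-6516-5p: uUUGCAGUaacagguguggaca
miR-465a-5p: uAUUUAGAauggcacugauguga
miR-149-5p: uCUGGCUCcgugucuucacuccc
miR-346-5p: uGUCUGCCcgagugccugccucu
miR-330-5p: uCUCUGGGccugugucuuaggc
miR-326-3p: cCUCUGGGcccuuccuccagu
miR-92b-3p: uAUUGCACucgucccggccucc
miR-25-3p: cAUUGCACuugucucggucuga
miR-181c-5p: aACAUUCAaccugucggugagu
miR-181d-5p: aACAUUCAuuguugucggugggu
let-7i-5p: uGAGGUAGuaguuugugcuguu

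Among the tested members with mature sequences 5 seeds were shared by more than 1 member. Mir330 and Mir326 shared a seed, as did Mir181c and Mir181d, and all 4 were lower with Hyd/HCTZ relative to all tested genes. Against zero Mir181c and Mir181d were not called, and with no level filter none of the 4 but Mir330 was. Mir92b was lower while Mir25, with the same seed, did not pass the test. Mir194-1 and Mir194-2 also divided, and Mir680-1, Mir680-2 and Mir680-3 were higher, not called and lower. The mature sequence of the 3 Mir680 copies is the same, so their probe sets are reported as uncertain.

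The hairpins below are those of Mir18 and Mir6516, the members with the largest fitted rise and fall, with the mature arms in capitals. Mir18 lay below the filter on all Ang II arrays, so only a bound on the size of its rise can be had, given with its values. Mir18 lies at chr14:115043851-115043946 on the plus strand, next to Mir17, and Mir6516 at chr11:117077348-117077457 on the plus strand, inside the noncoding gene Snhg20.
Mir18 hairpin: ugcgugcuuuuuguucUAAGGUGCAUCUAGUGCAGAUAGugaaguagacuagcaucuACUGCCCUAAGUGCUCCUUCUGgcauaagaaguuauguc
Mir6516 hairpin: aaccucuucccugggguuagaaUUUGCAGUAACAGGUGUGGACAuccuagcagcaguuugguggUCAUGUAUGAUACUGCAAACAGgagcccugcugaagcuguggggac

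The 6 Hyd/HCTZ arrays stood apart from all others before any microRNA was considered. On 6617 unnamed probe sets the first principal component, which held 27.7% of the variance, divided the arrays into 3 sets. Set 3 held the Hyd/HCTZ arrays and no other, so the treatment and the array set cannot be told apart. Set 1 comprised all 7 arrays from knockout cells, with 3 vehicle and 2 Ang II arrays from wild-type cells, and set 2 held the 2-HOBA arrays, the other 4 vehicle arrays and the other 2 Ang II arrays. Cybb, the gene of NOX2, was 6.41 to 7.18 on knockout arrays and 8.35 to 9.75 on wild-type arrays, except that the array labelled wild-type vehicle replicate 2 read 6.34. That array also had the narrowest spread of values, with an interquartile range of 1.92. The Hyd/HCTZ arrays had the widest, at 3.09 to 3.44, against at most 3.03 on the other arrays. All 14 genes of a dendritic cell marker list passed the level filter, and so did 13 of 13 B cell, 12 of 13 T and NK cell and 11 of 12 erythroid markers on the arrays.

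The question whether blood-pressure-lowering drugs given with Ang II alter microRNA transcripts was addressed by Hyd/HCTZ with Ang II against Ang II alone. Most tested members were lower with Hyd/HCTZ, and a small group was higher. The median difference of the 69 members was -0.46 on the log2 scale, against 0.32 over all 10452 tested genes. Differences are therefore given below relative to that median of all tested genes and tested with limma over all tested genes, with Benjamini-Hochberg adjustment and a threshold of 0.05. On that scale 51 members were lower, where 25% of all tested genes were called lower, and 10 were higher, where 23.7% were called higher. Against zero, without the shift, 46 members were called, where 52.7% of all tested genes were. Of these 35 were lower and 11 higher, with 11.9% and 40.8% of all tested genes, so 16 of the 51 were lower only on the relative scale.

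**Figure D1:**
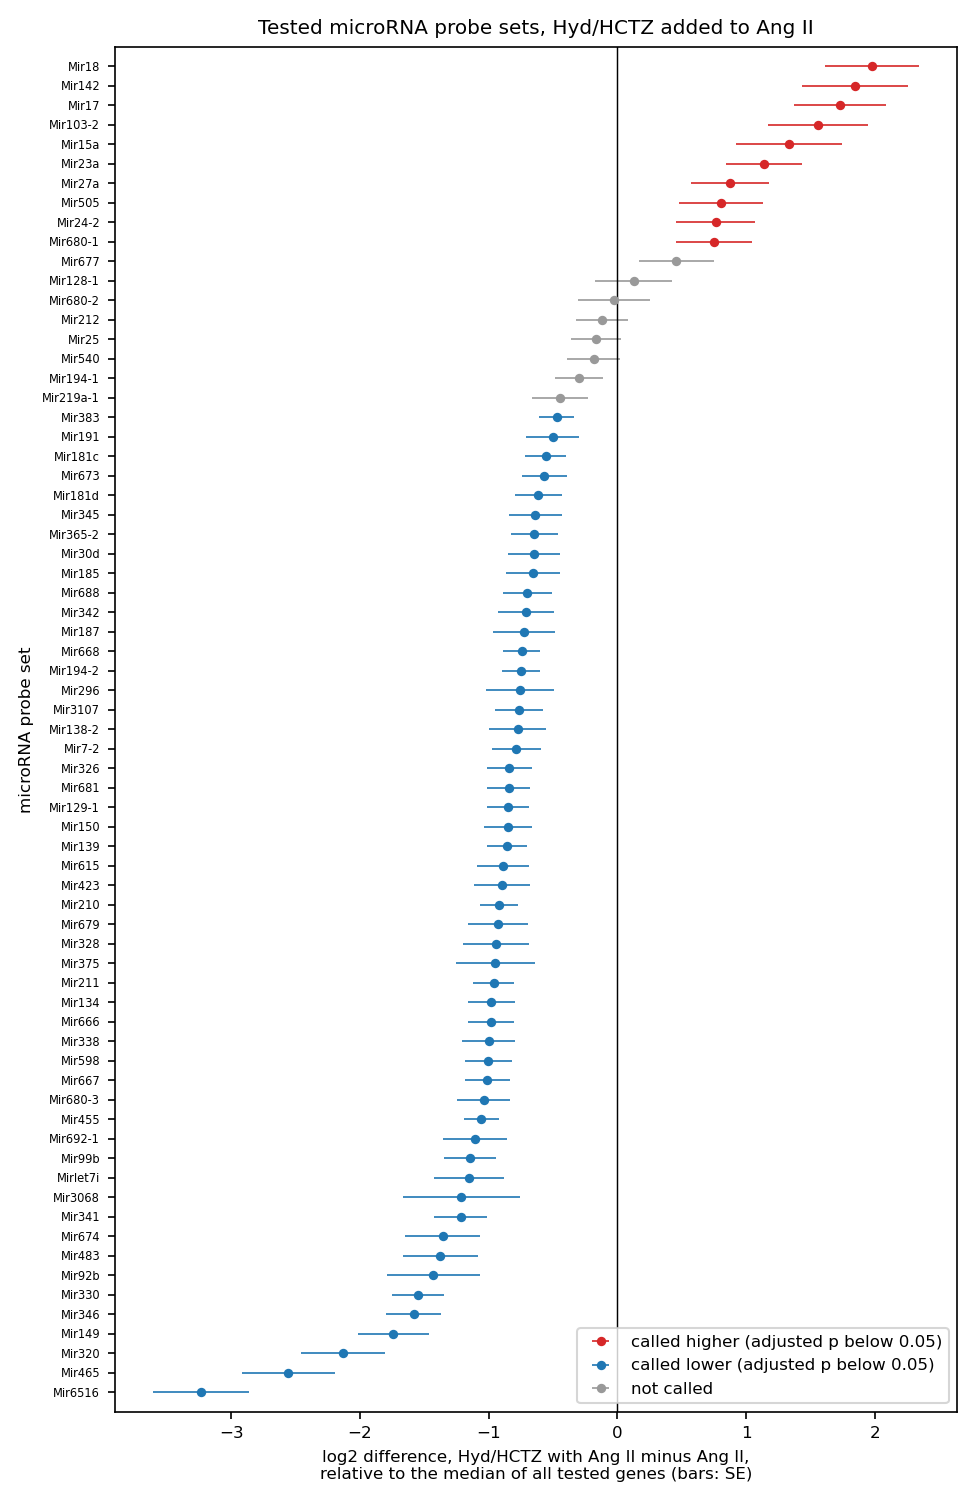
Relative log2 difference of each of the 69 tested microRNA probe sets, Hyd/HCTZ with Ang II minus Ang II in wild-type cells. Points are limma estimates, bars their SE and colours the call; 51 lie in the lower called set, 10 in the higher called set and 8 were not called.

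The level filter shaped the counts of higher and of lower members. Mir17, Mir18, Mir23a and Mir24-2 passed it only through the Hyd/HCTZ arrays, so they had to differ, and their differences are descriptions. At the other end, 23 tested members were above 5 on 0 Hyd/HCTZ arrays and passed only through other groups. All of these but Mir128-1, which was not called, belong to the 51 lower members, so that count rests in part on the filter. For Mir129-1, Mir138-2, Mir191, Mir3068, Mir342 and Mir365-2, setting each Hyd/HCTZ array to 5 left no relative fall. With no filter, over all 300 members, the relative median was -0.22, and 24 members were higher and 52 lower, where 27.3% and 8.48% of all genes were. Just inside the filter lay Mirlet7i, Mir668 and Mir365-2, with third-highest values of 5.001, 5.02 and 5.04. Just outside lay Mir350, Mir138-1 and Mir93, with 4.99, 4.97 and 4.95.

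The 10 higher members were Mir18, Mir17, Mir142, Mir103-2, Mir15a, Mir23a, Mir27a, Mir24-2, Mir505 and Mir680-1. Where arrays of the dimmer group lay below 5, a bound is given that sets each such array to 5. Mir18, the miR-18a gene of the oncogenic miR-17 cluster, ranged from 3.24 to 6.16 with a median of 5.79 on the 6 Hyd/HCTZ arrays. On the Ang II arrays it read 3.08, 2.71, 2.75 and 4.07. Hyd/HCTZ replicate 4, at 3.24, fell among the Ang II arrays, and the other 5 were above them all. The relative difference was 1.98 (SE 0.36), or at least 0.13 by that bound.

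Mir17, the first hairpin of that cluster, ranged from 3.84 to 6.73 with a median of 6.42 with Hyd/HCTZ, against 3.69, 4.12, 3.75 and 4.37 with Ang II. Replicate 4 again fell inside the Ang II range and the other 5 arrays above it. The relative difference was 1.73 (SE 0.36), or at least 0.71. Mir20a, Mir19a and Mir19b-1, further hairpins of the cluster, did not pass the filter. Mir17hg, their host transcript, was also below it, at 4.63 to 5.15 on the Hyd/HCTZ arrays and 4.26, 3.70, 3.95 and 3.93 on the Ang II arrays. Its groups did not overlap, and replicate 4 was its lowest Hyd/HCTZ array too.

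Mir142, the pan-hematopoietic microRNA that dendritic cells also need for their development, ranged from 5.48 to 8.05 with a median of 7.17 with Hyd/HCTZ. With Ang II alone it read 5.88, 5.34, 3.81 and 4.45. One Hyd/HCTZ array, replicate 4, overlapped the Ang II arrays. The relative difference was 1.84 (SE 0.41, adjusted p = 0.00062), a 3.59-fold difference, or on the log2 scale at least 1.41.

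Mir103-2, a member of the miR-103 and miR-107 family known for its role in metabolism, was the only higher member whose arrays did not overlap. It ranged from 5.79 to 6.68 with a median of 6.05 with Hyd/HCTZ, against 3.73, 2.92, 5.56 and 4.84 with Ang II. Its relative difference was 1.56 (SE 0.39, adjusted p = 0.0017), or at least 0.68. Over all tested genes 34.4% had every Hyd/HCTZ array above every Ang II array.

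Mir15a, which targets cell cycle and survival genes, ranged from 5.67 to 8.24 with a median of 7.72 with Hyd/HCTZ, against 6.44, 4.86, 5.80 and 6.21 with Ang II. Its relative difference was 1.33 (SE 0.41, adjusted p = 0.0088), or at least 1.30. It lost the call when Ang II replicate 2 was left out, at 1.03 (adjusted p = 0.057). Mir16-1, its partner in the same transcript, stayed below the filter at 4.05 ± 0.23 with Hyd/HCTZ and 3.45 ± 0.37 with Ang II (SD, n = 6 and 4).

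The cluster of Mir23a, Mir27a and Mir24-2, known for roles in myeloid and lymphoid fate, was measured by 3 hairpins, of which Mir23a and Mir24-2 passed the filter only through the Hyd/HCTZ arrays. The relative differences were 1.14 (SE 0.29) for Mir23a, 0.87 (SE 0.30, adjusted p = 0.019) for Mir27a and 0.76 (SE 0.30) for Mir24-2. With each Ang II array below 5 set to 5 they were at least 0.61, 0.62 and 0.16. Mir23a ranged from 4.40 to 6.53 with a median of 6.17 with Hyd/HCTZ, against 4.41, 4.39, 4.14 and 4.93 with Ang II. Mir27a lost the call without Ang II replicate 2 or 4, and Mir24-2 in 6 of the 10 fits that left out 1 array. Mir505 and Mir680-1, at 0.81 and 0.75, or at least 0.39 and 0.55, each lost it in 6 of those 10.

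One Hyd/HCTZ library carried much of the spread among these 10 members. Replicate 4 was the lowest of the 6 Hyd/HCTZ arrays for 10 of the 10, and the lowest for 40.9% of all tested genes. Without it, a comparison chosen after the values were seen, 9 of the 10 had every remaining Hyd/HCTZ array above every Ang II array. The 10 were selected as called higher on these same arrays, so that separation was partly built in. It is a description, with no share of all tested genes beside it. With replicate 4 left out of the fit, 10 members were called higher and 51 lower, where 22.8% and 24.6% of all tested genes were. With Ang II replicate 2 left out instead, 5 were called higher, where 20% of all tested genes were.

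**Figure D2:**
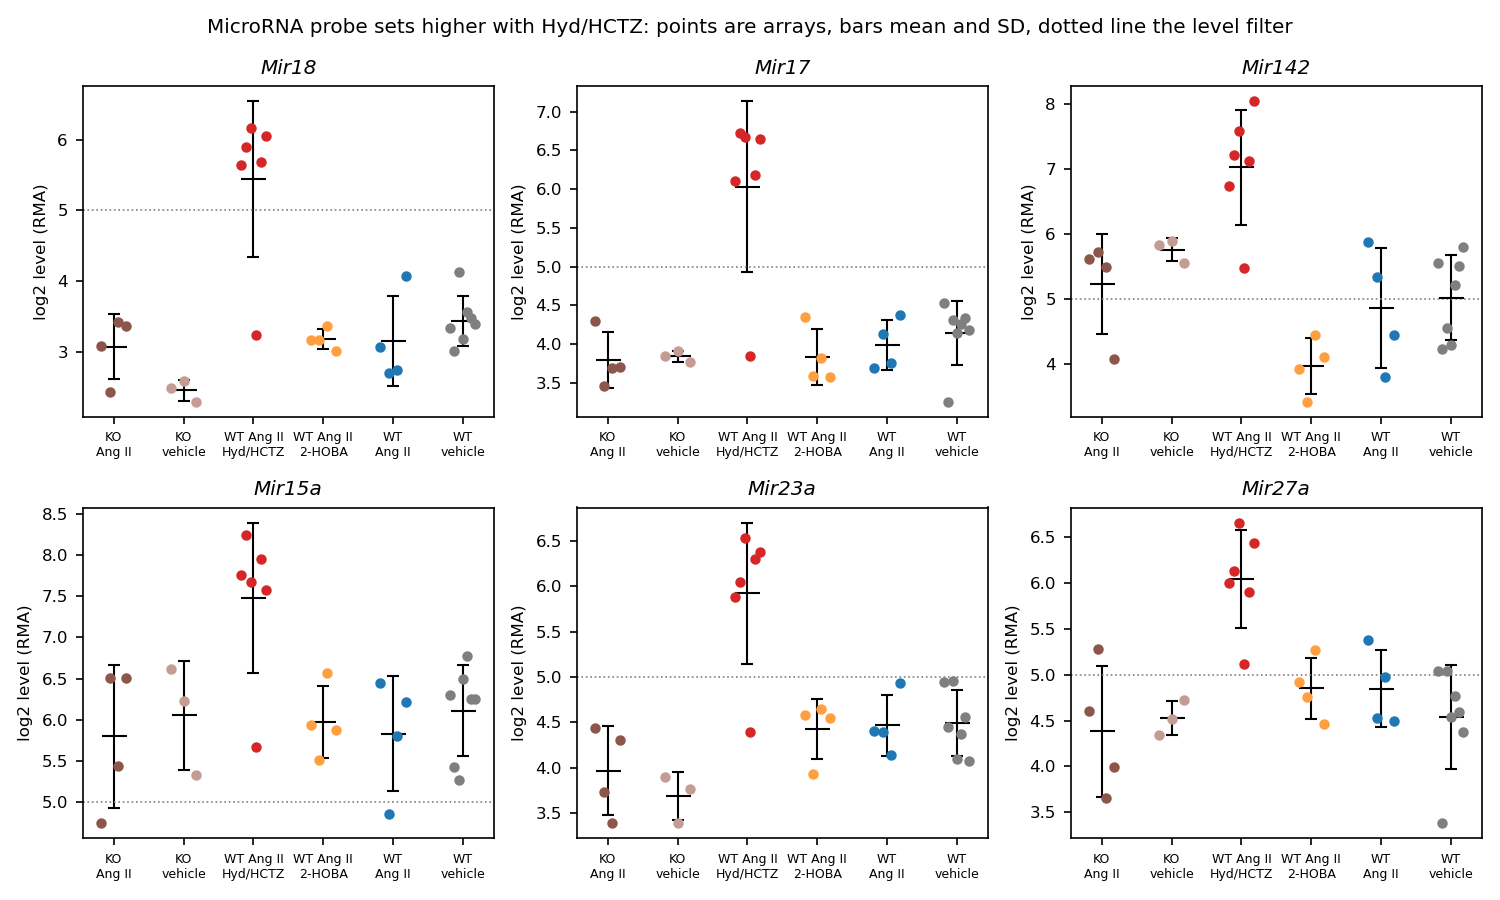
Log2 RMA level of 6 microRNA probe sets that were called higher with Hyd/HCTZ, 1 point per array in the 6 groups, with mean and SD as bars and the level filter of 5 as a dotted line. In the panels of Mir18, Mir17, Mir15a and Mir23a the lowest Hyd/HCTZ point lies far from the other 5. For Mir27a that point lies at 5.11 among Ang II arrays of 4.50 to 5.38.

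The members that were lower were more uniform. Of the 69 tested members 30, all of them called lower, had every Hyd/HCTZ array below every Ang II array, where 10% of all tested genes did. As 23 tested members were above 5 on 0 Hyd/HCTZ arrays and passed the filter only through other groups, that count was partly built in. Mir6516 had the largest fall. It ranged from 4.91 to 5.61 with a median of 5.24 with Hyd/HCTZ, against 8.59, 9.11, 8.38 and 6.67 with Ang II. No Hyd/HCTZ array came near the Ang II arrays, whose replicate 4 was their lowest. The relative difference was -3.24 (SE 0.37, adjusted p = 1.5e-07).

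Mir6516 also differed between array sets of 1 label: on wild-type vehicle arrays it was 7.13 to 7.54 in set 2 and 8.39 to 9.35 in set 1. The tested genes most like it over the 28 arrays were Rprl2 (r = 0.96), Rmrp (r = 0.94) and Scarna17 (r = 0.94), all of them noncoding RNA genes. Without the Hyd/HCTZ arrays those correlations were 0.82, 0.84 and 0.75 over 22 arrays, which share probe labelling and array set.

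Mir465, one of a cluster on the X chromosome best known from the testis, has near-identical copies beside it and is reported as uncertain. It ranged from 4.35 to 4.89 with a median of 4.73 with Hyd/HCTZ, against 6.96, 7.37, 7.20 and 6.15 with Ang II. Its relative difference was -2.56 (SE 0.36, adjusted p = 2.3e-06), or -2.24 with the Hyd/HCTZ arrays set to 5. The genes most like it were Iqca (r = 0.93), Trdn (r = 0.90) and 5730408K05Rik (r = 0.88), and 0.82, 0.75 and 0.62 without the Hyd/HCTZ arrays. Mir320, a microRNA that is made without Drosha, ranged from 4.87 to 5.63 with a median of 5.18 with Hyd/HCTZ, against 7.39, 7.13, 6.79 and 6.78 with Ang II. Its relative difference was -2.14 (SE 0.33, adjusted p = 7.4e-06), and its closest genes were Cnfn (r = 0.95), Snord49b (r = 0.94) and AY512931 (r = 0.94), and 0.89, 0.86 and 0.91 without the Hyd/HCTZ arrays.

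Mir149 ranged from 4.44 to 4.83 with Hyd/HCTZ, against 6.57, 6.31, 5.48 and 5.93 with Ang II. Its relative difference was -1.74 (SE 0.28, adjusted p = 1.2e-05), or -1.39 with the Hyd/HCTZ arrays, all below 5, set to 5. Mir346 ranged from 6.77 to 7.55 with Hyd/HCTZ, against 8.74, 8.91, 8.05 and 8.40 with Ang II. Its relative difference was -1.58 (SE 0.22, adjusted p = 1.6e-06). The groups of both members did not overlap.

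The next falls were Mir330 at -1.55 (-1.21 by the same bound), Mir92b at -1.43, Mir483 at -1.38, Mir674 at -1.36 and Mir341 at -1.22, with adjusted p from 8.2e-07 to 0.0018 and no overlap of the groups. Mir92b is the paralog of the miR-92 genes, and Mir483 lies in an intron of Igf2. Mir692-1, the brightest tested member, was 9.20 ± 0.38 with Hyd/HCTZ and 9.99 ± 0.16 with Ang II, a relative difference of -1.10.

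**Figure D3:**
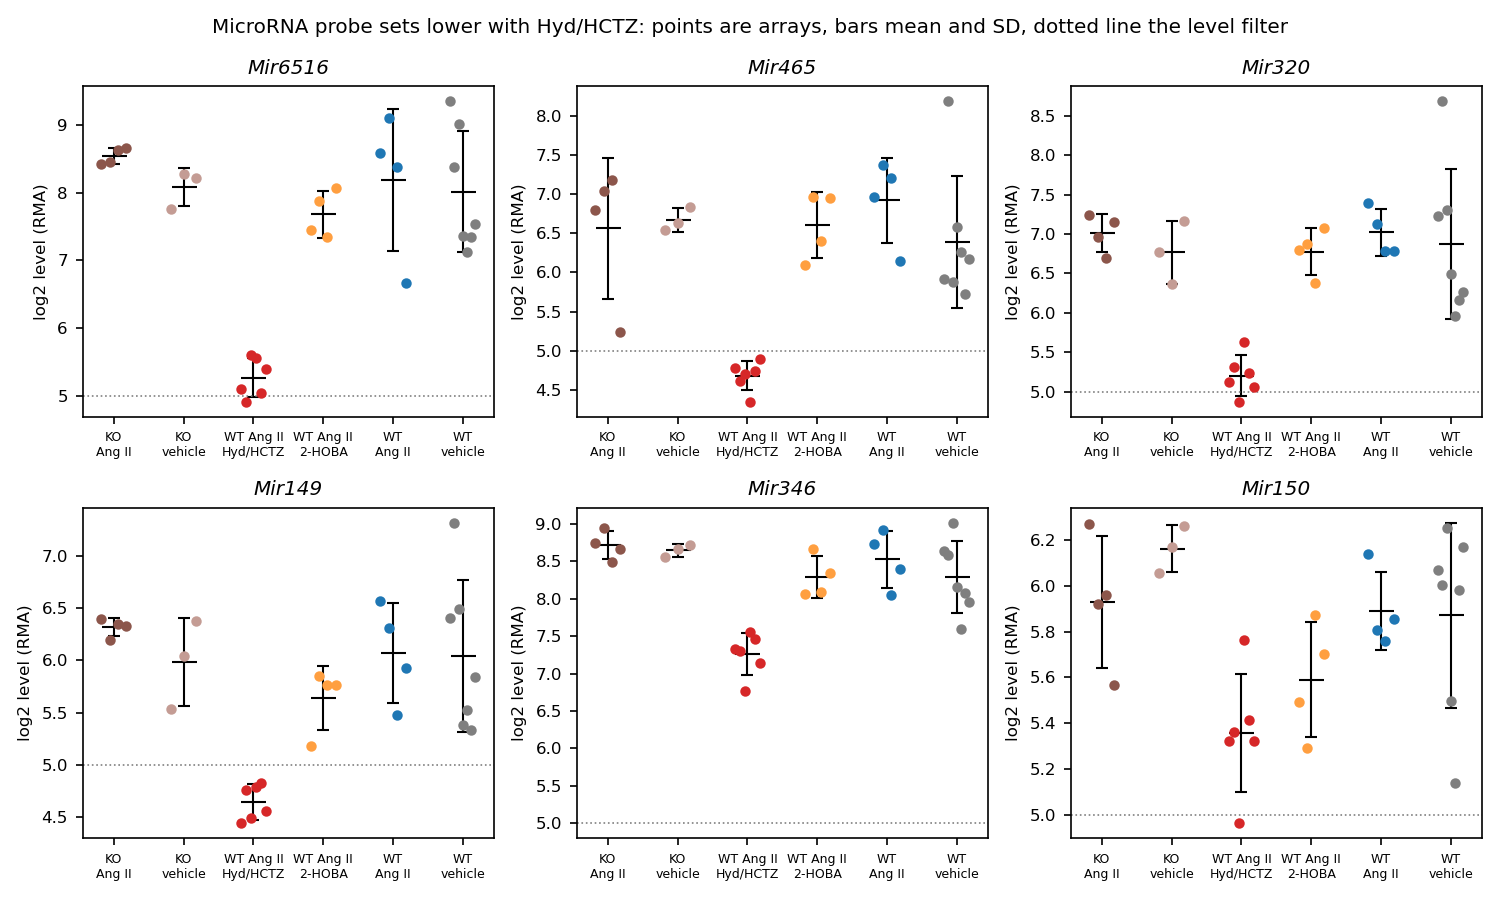
Log2 RMA level of 6 microRNA probe sets that were called lower with Hyd/HCTZ, 1 point per array in the 6 groups, with mean and SD as bars and the level filter of 5 as a dotted line. The Hyd/HCTZ points lie below the Ang II points for Mir6516, Mir465, Mir320, Mir149 and Mir346 and overlap them by 1 array for Mir150.

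The members' medians were below those of all tested genes at every level of signal. Members with a mean over all arrays under 5 had a relative median of -0.71 (n = 25), against -0.41 for all tested genes of that level. The filter shaped that bin. It held members that passed only through other groups, such as Mir129-1, Mir191 and Mir342. It also held Mir17, Mir18, Mir23a and Mir24-2, which passed only through the Hyd/HCTZ arrays. Between 5 and 6 the median of members was -0.75 (n = 21), against -0.04 for all tested genes. Mir149 and Mir330 of that bin also passed the filter only through other groups. Between 6 and 7 it was -0.89 (n = 16), against 0.10 for all tested genes. The 7 members of mean 7 or more were all called lower, while 14.9 to 17.5% of all genes in those bins were.

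**Figure D4:**
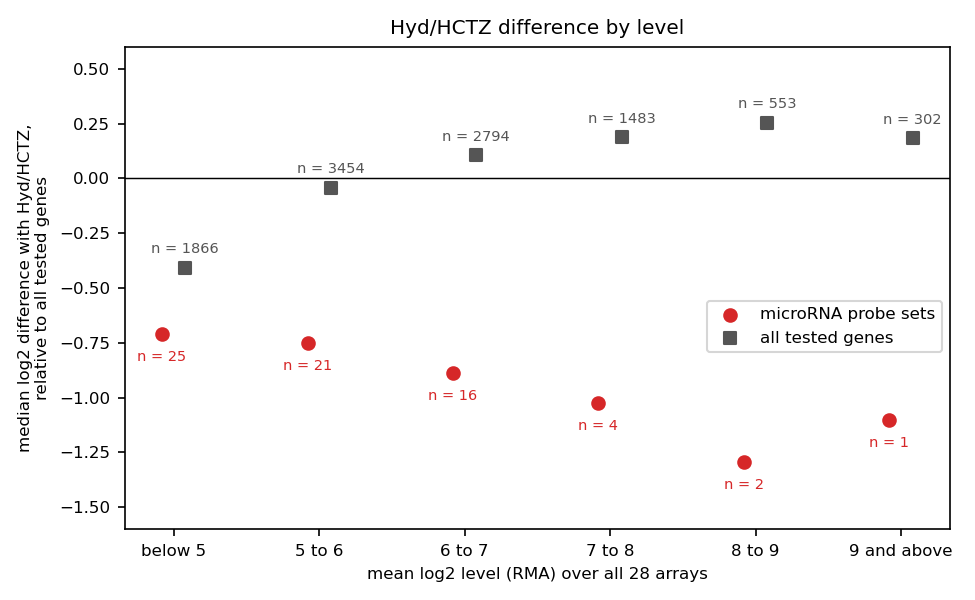
Median relative log2 difference with Hyd/HCTZ by mean level over all 28 arrays, for microRNA probe sets (circles) and all tested genes (squares), with the number in each bin. The microRNA medians run from -0.71 to -1.29, and those of all tested genes from -0.41 to 0.25. The level filter shaped the medians of the lowest bins.

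The same direction appeared between arrays of 1 label. Within wild-type vehicle, 48 of the 51 lower members averaged less on the 4 arrays of set 2 than on the 3 of set 1, as did 56 of all 69 tested members and 25.9% of all tested genes. The median of that difference was -0.59, against 0.39 over all tested genes. Without vehicle replicate 2 the count was 49 of 51, the medians were -0.51 and 0.23, and 30.8% of all tested genes were lower. Within Ang II, 41 of the 51, 48 of all 69 tested members and 40.7% of all tested genes were lower on the 2 arrays of set 2. The median for the 51 was -0.36, against 0.11 over all tested genes. The 51 were selected in a comparison that used these Ang II arrays. The part of the array sets in the Hyd/HCTZ differences cannot be told apart from the treatment.

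MicroRNAs were also grouped by lineage, in lists made with earlier results of these data known. Of the myeloid list 4 of 4 tested members were higher with Hyd/HCTZ, namely Mir142, Mir23a, Mir27a and Mir24-2, of which Mir23a and Mir24-2 passed the filter only through those arrays. Of the lymphoid list 5 of 5 tested members were lower: Mir150, Mir342, Mir191, Mir181c and Mir181d. Among all tested members 73.9% were called lower and 14.5% higher. Against zero 4 of the 5 lost the call, Mir342 at -0.39, Mir191 at -0.19, Mir181c at -0.24 and Mir181d at -0.30 (adjusted p = 0.13, 0.47, 0.21 and 0.17). Mir150, which restrains lymphocyte development through Myb, ranged from 4.96 to 5.77 with a median of 5.34 with Hyd/HCTZ, against 6.14, 5.81, 5.76 and 5.86 with Ang II. One Hyd/HCTZ array overlapped them, and the relative difference was -0.85 (SE 0.19, adjusted p = 0.00061). With no filter Mir150 was not called, at -0.38 (adjusted p = 0.11). Mir342, an intronic microRNA of Evl, differed by -0.71 (SE 0.22, adjusted p = 0.0079). It and Mir191 were below 5 on all 6 Hyd/HCTZ arrays and averaged below 5 in both groups, so the size of their differences is not bounded.

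Other lists were small, and their counts stand beside 73.9% lower and 14.5% higher among all tested members. Mir17 and Mir18, 2 of 3 tested members of the proliferation clusters, were higher but passed the filter only through the Hyd/HCTZ arrays, Mir25 was not called, and Mir15a was the 1 tested member of the tumour suppressor families. No member of the Sfmbt2 intron families was tested. Mir210, the hypoxia-responsive microRNA, was the 1 tested member of the erythroid and megakaryocytic list, and was lower at -0.92. Among the microRNAs inducible by innate stimuli, 2 of 3 tested members were lower, Mir99b and Mir187, and Mir212 was not called at -0.12. Mir187 was not called against zero, at -0.41 (adjusted p = 0.15). Mirlet7i, the 1 tested member of the let-7 family, was lower at -1.15, and at -0.67 without Ang II replicate 1, which read 6.25 where the other 3 read 4.27 to 4.54. It averaged below 5 in both groups and was above 5 on 3 arrays in all. The imprinted Dlk1-Dio3 region of chromosome 12, a list made after the values were seen, held 8 tested members. Of these 7 were lower and Mir540 was not called, where 73.9% of all tested members were called lower. Mir134, Mir668 and Mir679 were below 5 on all 6 Hyd/HCTZ arrays.

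Markers of other cell types moved in the same comparison. Their counts are on the relative scale, where 25% of all tested genes were called lower and 23.7% higher. B cell markers were lower in 11 of 13, with a mean level of 6.06 to 7.09 on Hyd/HCTZ arrays and 7.85 to 8.86 on Ang II arrays. Erythroid markers were lower in 10 of 11, at 4.40 to 4.83 and 5.15 to 6.66, and neutrophil markers in 6 of 9, at 5.32 to 6.54 and 6.21 to 7.86. T and NK cell markers were lower in 7 and higher in 1 of 12, at 5.28 to 6.07 and 5.88 to 6.52. Stromal and endothelial markers were lower in 5 of 6, and megakaryocyte and platelet markers in 1 of 6. Dendritic cell markers were higher in 10 of 14 and red pulp macrophage markers in 9 of 14. The dendritic cell levels were 8.70 to 8.92 on Hyd/HCTZ arrays and 7.39 to 7.85 on Ang II arrays. In bulk RNA fewer cells of a type and less RNA per cell cannot be told apart, and the part of these cells in the microRNA values was not tested.

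Many microRNAs of immune interest were too dim to test. Of 18 picked for their known roles or for earlier results of these data, 7 were tested. The other 11, among them Mir155, Mir146, Mir451a, Mir144 and Mir132, had highest array values between 2.72 and 5.10. Mir155, the activation-induced microRNA of dendritic cells, averaged 4.08 with Hyd/HCTZ and 4.29 with Ang II. Values this low were not read as an order of expression.

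The genes that make and load microRNAs did not move in 1 direction with Hyd/HCTZ. Of 41 biogenesis genes 38 were tested, and 5 were higher and 6 lower relative to all tested genes, where 23.7% and 25% of all tested genes were. Dgcr8, the partner of Drosha, was 5.75 ± 0.10 with Hyd/HCTZ and 6.33 ± 0.21 with Ang II, a relative difference of -0.90 (adjusted p = 6.6e-05). Drosha at -0.10, Xpo5 at -0.05, Dicer1 at -0.34 and Ago2 at -0.02 were not called. The sign of Drosha, Xpo5 and Ago2 turned against zero, and with no filter Xpo5 (0.42) and Ago2 (0.45) were called higher.

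Prkra, the Dicer partner PACT, differed by 1.66 (adjusted p = 8.9e-07), and Tsn, a subunit of the C3PO nuclease, by 1.34 (adjusted p = 4.3e-05). Ncbp2, of the nuclear cap-binding complex, differed by 0.93 (adjusted p = 9.9e-05), and Hsp90aa1, a chaperone used in Argonaute loading, by 0.82 (adjusted p = 0.011). Lower genes included Trim71 at -1.01, Tut4 at -0.92, which uridylates pre-let-7, and Srrt at -0.64, the ARS2 protein of the cap complex. Their adjusted p were 7.4e-05, 0.0052 and 0.00049. Trim71 averaged 4.29 with Hyd/HCTZ and 4.98 with Ang II, and Prkra 4.24 with Ang II. These lie below the level of the filter, so the sizes of both differences are uncertain. No biogenesis gene was called in any of the other 6 comparisons.

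Host genes were compared where the members lie inside them. RefSeq placed 62 of the 69 tested members, and 21 lay inside a gene of the same strand, of which 13 pairs had a tested host. Member and host went the same way in 10 pairs and opposite ways in 3. In 6 pairs both were called lower, where 73.9% of all tested members and 25% of all tested genes were called lower. These directions and calls are on the relative scale. The Pearson correlation of the 2 differences was 0.69 over the 13 pairs, which share arrays and array sets and carry no test.

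Mir330 lay in Eml2 (-0.42), Mir455 in Col27a1 (-0.60), Mir483 in Igf2 (-0.92) and Mir342 in Evl (-0.60), all called lower with their member. Eml2, Col27a1 and Evl were not called against zero, with adjusted p of 0.55, 0.12 and 0.085. Eml2 changed sign with no filter, at 0.050. Mir103-2 differed by 1.56 where its host Pank2, a pantothenate kinase, differed by 0.42 (adjusted p = 0.054). Against zero Pank2 was called, at 0.74 (adjusted p = 0.0013). Mir128-1 at 0.13 and its host R3hdm1 at -0.19 were not called.

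**Figure D5:**
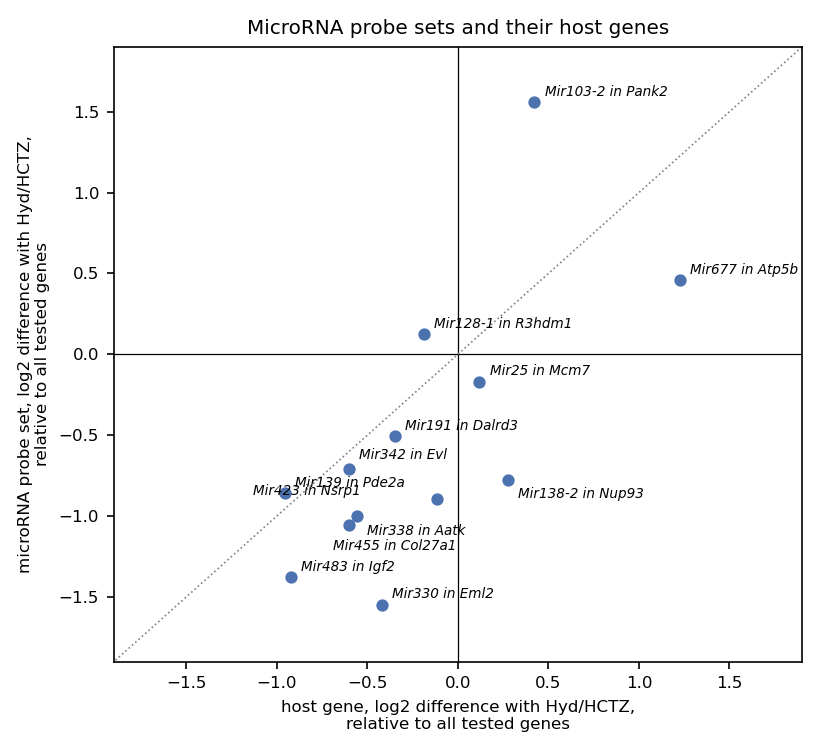
Relative log2 difference with Hyd/HCTZ of 13 tested microRNA probe sets (vertical axis) against that of the RefSeq gene containing them on the same strand (horizontal axis). The dotted line marks equal differences, and 10 of the 13 pairs have the same sign on both axes.

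Base composition was set beside the differences as a description. The 38 lower members with a matched hairpin had a median GC content of 58.0%, the 8 higher members 50.7% and the 8 not called 61.1%. The 204 hairpins of members below the filter had 45.5%. The correlation of GC content with the relative difference was -0.22 over 54 tested members and -0.06 over all 258 members with a hairpin.

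In the comparison of 2-HOBA with Ang II against Ang II alone, limma called 0 members and 0% of all tested genes. At an unadjusted p below 0.05 there were 1 member and 379 genes. The median difference of members was -0.09, against 0.05 over all tested genes. Mir142 read 3.92, 3.42, 4.45 and 4.12 with 2-HOBA, against 5.88, 5.34, 3.81 and 4.45 with Ang II, a difference of -0.89 (SE 0.45, adjusted p = 0.98). The 2 higher Ang II arrays are those of set 1, and within set 2 the difference was -0.15. Mir134 differed by -0.42 and Mir3107 by -0.37, with the same adjusted p.

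Ang II against vehicle in wild-type cells gave 0 members called, with 0% of all tested genes, and at an unadjusted p below 0.05 there were 1 member and 266 genes. The median difference of members was 0.04, against -0.001 over all tested genes. Mir128-1, which lies in R3hdm1, read 3.45, 3.59, 4.36 and 5.08 with Ang II. With vehicle it ranged from 3.90 to 5.49 with a median of 4.84, and the groups overlapped. The difference was -0.61 (SE 0.29, adjusted p = 0.99996), and -0.73 and -0.37 within sets 1 and 2. Mir128-1 would not have passed the filter without the vehicle arrays, so a fall from them was partly built in. Both groups averaged below 5, so the size of its difference is not bounded. Mir455 at 0.25 and Mir210 at 0.24 had the next smallest p, with the same adjusted p.

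In NOX2 knockout cells Ang II against vehicle also gave 0 members and 0% of all tested genes, with 1 member and 296 genes at an unadjusted p below 0.05. The median difference of members was 0.07, against -0.01 over all tested genes. Mir3107 was 6.04 ± 0.26 with Ang II and 5.53 ± 0.16 with vehicle (SD, n = 4 and 3), a difference of 0.51 (SE 0.22, adjusted p = 0.99987 in limma). Its groups did not overlap. Mir194-2 at -0.34 and Mir326 at 0.32 came next.

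Between genotypes with vehicle, limma called 0 members and 0.00957% of all tested genes, with 9 members and 657 genes at an unadjusted p below 0.05. The median difference of members was 0.01, against -0.02 over all tested genes. Mir128-1 read 3.28, 3.70 and 3.80 in knockout cells, below the 3.90 to 5.49 of wild-type cells. The difference was -1.14 (SE 0.32, adjusted p = 0.39), and within set 1 it was -0.65 (adjusted p = 0.33). Mir128-1 would not have passed the filter without the wild-type vehicle arrays, so a fall from them was partly built in. Both groups averaged below 5, so the size of its difference is not bounded. Mir505 read 4.33, 4.39 and 4.44 in knockout cells, against 4.72 to 6.31 with a median of 5.30 in wild-type cells, a difference of -1.06 (adjusted p = 0.54). With those knockout arrays set to 5, it was -0.42 relative to the median of all tested genes. Mir23a differed by -0.81 (adjusted p = 0.69), and by -1.10 within set 1. It was above 5 on no array of either group, so the size of these differences is uncertain.

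This count depended on how arrays were weighted. With limma's array weights, which gave wild-type vehicle replicate 2 a weight of 0.06, 12 of the 69 members were called, where 13.7% of all tested genes were. Of the 12, 3 were lower in knockout cells (Mir128-1, Mir505 and Mir103-2) and 9 higher, with 11.9% and 1.82% of all tested genes. The call of Mir128-1 was partly built in, as it passed the filter only with the wild-type vehicle arrays. Mir330 at 0.72 and Mir338 at 0.69 were the largest of the higher ones. Leaving replicate 2 out of the unweighted fit called 0 members.

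Between genotypes with Ang II, 0 members and 0.0478% of all tested genes were called, with 3 members and 714 genes at an unadjusted p below 0.05. The median difference of members was 0.04, against -0.03 over all tested genes. Mir680-2 differed by -0.71 (adjusted p = 0.62), Mir666 by -0.45 (adjusted p = 0.62) and Mirlet7i by -0.65 (adjusted p = 0.67). Mir666 read 5.96, 5.87, 5.74 and 5.35 in knockout cells, against 6.34, 6.54, 5.72 and 6.13 in wild-type cells. With the array set as a block it was called, at -0.72 (adjusted p = 0.049), and within set 1 it was -0.71 (adjusted p = 0.87). For Mirlet7i the wild-type mean rested on replicate 1, at 6.25, where the other 3 read 4.27 to 4.54.

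No difference in the effect of Ang II between genotypes was detected. The interaction called 0 members and 0% of all tested genes in limma, with 1 member and 257 genes at an unadjusted p below 0.05. Mir505 had the smallest p, with an interaction of 1.10 (SE 0.50, adjusted p = 0.99999). Its knockout vehicle arrays all lay below 5, so the size of that interaction is uncertain. The median SE of a member's difference was 0.20 to 0.25 in the single comparisons and 0.32 in the interaction, which sets the size of difference these arrays could show.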

How the data were processed

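The deposited table held 1 log2 value for each of 35556 probe sets and 28 arrays, made by the authors with RMA, and per the submitters' processing notes Partek 6.6 was used. The RMA version and the build of the array annotation are not stated. Values ran from 0.90 to 14.34. Symbols came from the platform annotation, in which 21789 probe sets had 1 symbol, 1621 several and 12146 none. No scaling was added. One limma fit (limma 3.58.1, R 4.3.3) held 6 group means over all arrays, with eBayes and Benjamini-Hochberg adjustment over 10452 genes, tested on simulated data. In the Hyd/HCTZ comparison, and for Mir505 between genotypes with vehicle, bounds set each array of the dimmer group below 5 to 5. Precision is limited by how many arrays there were. Errors after ± are SDs.

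The members, gene lists and tests were chosen with earlier results of these data known. Named members were 18 symbols of known role on the array, the 10 largest rises and falls called, or the 3 smallest p where fewer than 3 were called, with hosts and cluster partners, 5 biogenesis genes and the 4 smallest p in each direction of that list. Other members named for a shared seed, a list, brightness or array weights were picked after their values were seen. Genes of 17 lists were counted. Replicate numbers did not pair the arrays: over 57 same-number pairs the median correlation of deviations was -0.03, and 10 exceeded 0.1. No 2 arrays held the same values (correlations 0.79 to 0.99). Alternatives covered filter, scaling, weights, array sets, blocks and left-out arrays.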

Additional observations from a re-analysis of the deposited data

Results flagged for a closer look

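Within a group, 1 array lay far from its nearest neighbour for 15 values among 165 groups of values looked at, where chance gives about 1 in 20. All levels are log2 RMA values. Hyd/HCTZ replicate 4 was the low array for Mir18 at 3.24 (next 5.65), Mir17 at 3.84 (next 6.11), Mir15a at 5.67 (next 7.57) and Mir23a at 4.40 (next 5.89). Hyd/HCTZ replicate 3 was low for Mir330 at 4.22.

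The array labelled wild-type vehicle replicate 2 was low for Mir17 at 3.25 and Mir27a at 3.38, and high for Mir465 at 8.19. In the 2-HOBA group replicate 4 was high for Mirlet7i at 5.001 and Mir674 at 6.46, replicate 1 was low for Mir149 at 5.18 and replicate 2 was low for Mir23a at 3.93. In wild-type Ang II replicate 1 was high for Mirlet7i at 6.25 and Mir680-1 at 5.37. In knockout Ang II replicate 4 was low for Mir142 at 4.09.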

How the results depend on the processing

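No member called in the Hyd/HCTZ comparison and named in the text changed sign in the alternatives run. With no filter 123 of 300 members were called against zero, 18 higher and 105 lower, and 24 were higher relative to all genes, with a relative median of -0.22. A filter above 7 left 15 called, 2 higher and 13 lower against zero, and 15, 1 and 14 on the relative scale, with a median of -1.49. On that scale 21.6% of all tested genes were higher and 24.5% lower. Keeping members with a mean above 5, chosen after seeing the data, gave 5 higher against zero, 37 called relative of which 2 were higher, and a median of -0.92. Relative calls there covered 22.1% of all tested genes as higher and 22.9% as lower. Quantile normalization gave a median of -0.58. On the relative scale it called 10 of 71 members higher and 36 lower, where 22.7% and 19% of all tested genes were. Leaving out 1 array at a time gave 5 to 10 higher members on the relative scale, the lowest without Ang II replicate 2. Between 19.6% and 22.8% of all tested genes were higher in those fits. The replicate number as a block (replicate block) gave 8 higher and 43 lower, where 20.7% and 19.7% of all tested genes were. It is given here only because the numbers do not pair the arrays.

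Array weights called 12 members between genotypes with vehicle, and the array set as a block called 1 with Ang II. Some genes that were near 0 and not called turned their sign. Against zero Drosha was 0.22, Xpo5 0.27, Ago2 0.30 and R3hdm1 0.13. With no filter Drosha was 0.37, Xpo5 0.42 and Ago2 0.45, both then called higher, and Dicer1 was 0.13, R3hdm1 0.28 and Eml2, which was called lower with the filter, 0.050. Array weights gave Xpo5 0.0016 and Ago2 0.034, and the replicate block gave 0.014 and 0.017. With 1 array left out Xpo5 ran from -0.13 to 0.0094 and Ago2 from -0.096 to 0.066. Members that were not called also turned. Against zero Mir212 was 0.20, Mir25 0.15, Mir540 0.13, Mir194-1 0.019 and Mir680-2 0.29, and with no filter 0.35, 0.30, 0.28, 0.17 and 0.44. Quantile normalization gave Mir25 0.00888 and Mir540 0.10, array weights gave Mir680-2 0.13 and Mir128-1 -0.033, and the replicate block gave Mir212 0.010. With 1 array left out Mir680-2 ran from -0.18 to 0.17 and Mir128-1 from -0.078 to 0.41. The cause of these changes was not tested, except that fewer or more genes were tested where the filter changed.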
